A study of Mus musculus with 6 samples.

Results

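The genes described here set the level of fructose bisphosphates in glycolysis: the 4 bifunctional enzyme genes Pfkfb1, Pfkfb2, Pfkfb3 and Pfkfb4, the bisphosphatase gene Tigar and the muscle fructose-1,6-bisphosphatase gene Fbp2. The 6 genes were chosen from measured values of the same libraries, namely their summed counts and TPM in the 3 groups compared below. Their levels and fold changes are therefore a description: how many pass the threshold used for all genes is counted below, and no such call is offered as a test of them. They are 6 of 17558 genes in the table, and 5 of the 6 passed the filter on low counts that left 12643 genes. Fbp2 did not pass it.

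RNA was sequenced from the mouse C2C12 line, immortalized myoblasts that stop dividing and fuse into myotubes when serum is lowered. All cells had been kept for 48 h in DMEM with 2% horse serum and an insulin, transferrin and selenium supplement. There were 3 groups of 2 libraries, and the question was how myoblast differentiation depends on the pyruvate kinase isoforms Pkm1 and Pkm2. The control cells stably carried a scrambled hairpin (shScr; genotype label WT), and the others a hairpin directed at Pkm1 (shPkm1; Pkm1 Knockdown) or at Pkm2 (shPkm2; Pkm2 Knockdown). All 3 groups thus shared the C2C12 background, the stable hairpin vector and the medium. Whether the stable lines were pools or single clones, and whether the libraries of a group came from separate cultures, is not given in the sources used here. The spread within a group, and every p-value below, may then be technical.

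Fructose-2,6-bisphosphate is the strongest known activator of phosphofructokinase-1, the enzyme that commits sugar to glycolysis, and an inhibitor of fructose-1,6-bisphosphatase, which runs the opposite step. Enzymes of the Pfkfb family carry a kinase that makes fructose-2,6-bisphosphate and a phosphatase that removes it, and the isozymes differ in the balance of these activities. Tigar is a p53-inducible phosphatase that lowers fructose-2,6-bisphosphate and can direct sugar into the pentose phosphate pathway, and Fbp2 is the fructose-1,6-bisphosphatase isozyme of muscle. Pfkfb1 is known as the isozyme of liver and skeletal muscle, Pfkfb2 as that of heart, Pfkfb3 as the inducible isozyme with a high kinase activity, and Pfkfb4 as a testis isozyme that is also induced by low oxygen.

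Each library held between 18216896 and 19796036 estimated counts. Pkm was checked first. The RefSeq transcript of the Pkm1 isoform (NM_001253883.1) held 15840 and 16970 estimated counts in the shScr libraries, 5854 and 5856 in shPkm1, and 6635 and 6909 in the shPkm2-labelled libraries. The transcript of the Pkm2 isoform (NM_011099.3) held 31150 and 43710, 30820 and 37020, and 70490 and 71460 counts. The isoform named by the label was thus not lower in the shPkm2-labelled libraries, and every direction given for them carries that limit. The summed level of 15 muscle genes such as Ckm, Acta1 and Ttn was 36870 to 52600 TPM in shScr, 16630 to 17860 TPM in shPkm1 and 366.4 to 380.5 TPM in the shPkm2-labelled libraries. The summed level of 6 myoblast genes was 3059 to 3273, 2701 to 2850 and 1033 to 1127 TPM. That of 10 proliferation genes was 197.8 to 252.8, 471.2 to 495.8 and 1346 to 1427 TPM, so muscle and proliferation markers moved with the groups. The part of these and the next markers in the results below was not tested. Summed adipocyte markers (4 of 6 above 3 counts, Adipoq and Plin1 not) also moved with the groups, from 12.8 to 15.09 over 29.45 to 30.54 to 46.44 to 52.51 TPM. So did those of bone and cartilage (6 of 8 above 3 counts, Ibsp and Acan not), from 17.91 to 23.18 over 30.59 to 34.08 to 47.02 to 53.39 TPM. Macrophage markers (4 of 6 above 3 counts, Ptprc and Adgre1 not) summed to 1.35 to 2.36, 4.46 to 5.85 and 3.15 to 3.74 TPM. None of the hepatocyte markers analysed passed 3 counts (0 to 0.11 TPM in sum). In bulk RNA, fewer cells of a type and less RNA per cell cannot be told apart.

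Levels are given on 2 scales. TPM takes gene length into account and gives each gene's part of all transcripts, so that genes can be compared with each other. CPM here means estimated counts scaled to library size with the TMM factor, which sets the typical gene to no change between libraries and is the scale of the fold changes. With plain library totals in place of TMM the median of all tested genes lay 0.19 higher on the log2 scale for shPkm1 against shScr, 0.33 higher for shPkm2 against shScr and 0.13 higher for shPkm2 against shPkm1. The share of higher genes among all calls then went from 50.3% to 65.8%, from 49.8% to 69.3% and from 48.4% to 61.3%. Directions of Pfkfb3, Pfkfb4 and Tigar that differ between the scales are named beside them.

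In the shScr libraries the order of the genes by TPM was Pfkfb3, Pfkfb4, Tigar, Pfkfb2, Pfkfb1 and Fbp2, with mean levels of 6.33, 4.84, 3.38, 1.60 and 0.635 TPM for the first 5, and no neighbours among these 5 overlapped between their 2 libraries. In shPkm1 the order was Pfkfb3, Pfkfb4, Pfkfb2, Tigar and Pfkfb1, and Pfkfb3 and Pfkfb4 overlapped (6.68 to 7.01 against 6.26 to 7.08 TPM). In the libraries labelled shPkm2 it was Pfkfb4, Pfkfb3, Tigar, Pfkfb2 and Pfkfb1, with overlap between Pfkfb4 and Pfkfb3 and between Tigar and Pfkfb2. All 6 genes were low: the phosphofructokinase-1 genes Pfkm, Pfkl and Pfkp together held 240.7 to 401.3 TPM, while the 4 Pfkfb genes together held 12.71 to 21.42 TPM.

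**Figure D1:**
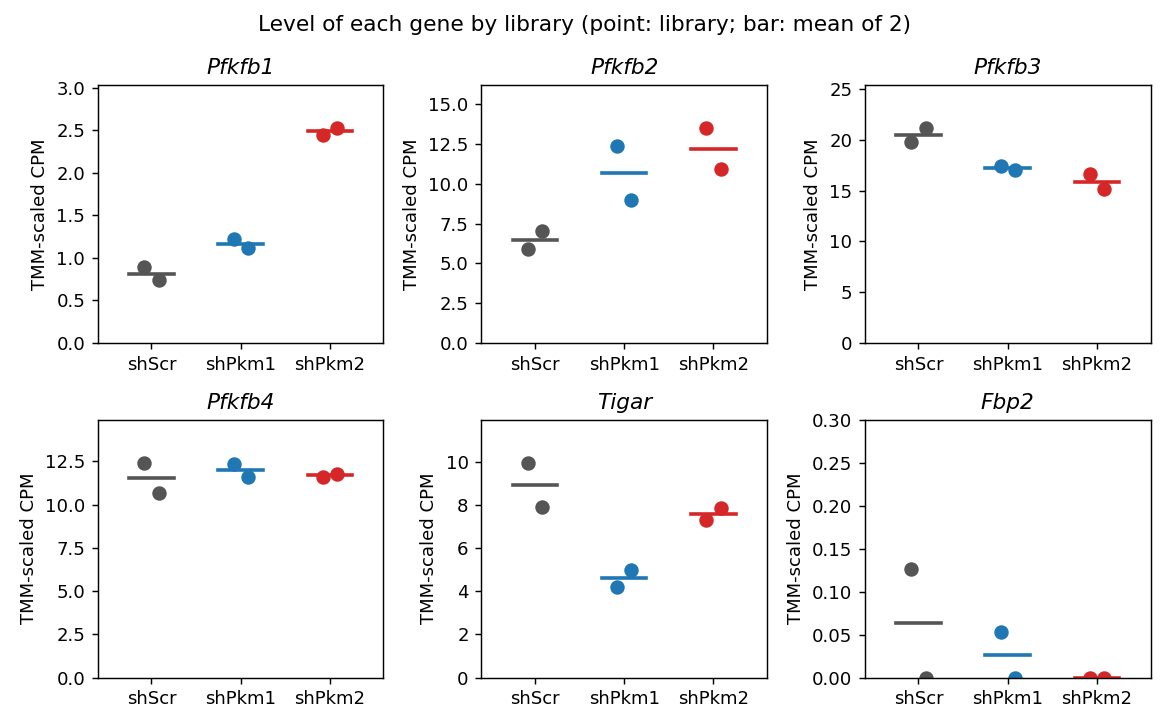
Level of the 6 genes in each library, in TMM-scaled CPM (y axis from 0, a separate range per gene), by hairpin group (x axis). Points are libraries and bars the mean of 2. Pfkfb1 climbs from 0.7342 to 0.8871 CPM in shScr to 2.447 to 2.528 CPM in the shPkm2-labelled libraries, and Tigar is lowest in shPkm1.

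Pfkfb1 (NCBI gene 18639, chrX:150587445-150643878 in GRCm38.p6) had the largest difference of the set. Its libraries held 14 and 13 estimated counts in shScr, 23 and 22 in shPkm1, and 52 and 53 in the shPkm2-labelled libraries. In CPM these were 0.887 and 0.734, 1.22 and 1.11, and 2.45 and 2.53. The 3 groups did not overlap on either scale, with shScr lowest and shPkm2 highest. The fitted level in shPkm2 was 3.06-fold that in shScr (log2 fold change 1.615, SE 0.31, 95% interval 0.94 to 2.29) and 2.12-fold that in shPkm1 (1.09, SE 0.29, 0.47 to 1.71). Against shScr the shPkm1 value was 0.53 (SE 0.35), with an interval from -0.23 to 1.28 that held 0. At 13 to 53 counts per library the level was set by few reads, and intervals here and below cover the spread between libraries but not the uncertainty of assigning reads to transcripts.

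The promoter of the gene with the largest rise is shown to give the sequence context of its start. It is the window of 250 bases before the start of NM_008824.3, the transcript with the most Pfkfb1 counts over the libraries, at chrX:150589666-150589915 on the plus strand (RefSeq, GRCm38.p6), with 42.8% G and C. Capitals mark matches to CANNTG, the E-box, which myogenic and other helix-loop-helix factors can bind.
Pfkfb1: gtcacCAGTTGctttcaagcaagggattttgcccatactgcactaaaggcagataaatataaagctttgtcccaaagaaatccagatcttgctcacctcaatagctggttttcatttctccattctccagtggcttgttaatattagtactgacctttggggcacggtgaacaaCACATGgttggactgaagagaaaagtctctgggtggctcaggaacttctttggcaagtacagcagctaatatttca
The window held 2 matches to CANNTG and 0 to ACGTG, the core of the site bound by hypoxia-inducible factors. Both motifs were searched on both strands. Of 32851 promoter windows of this length, 66.2% held CANNTG and 16.6% held ACGTG.

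Pfkfb2 (gene 18640, chr1:130689043-130729253) was higher under both hairpins. It held 93 and 125 counts in shScr, 233 and 178 in shPkm1 and 287 and 229 in the shPkm2-labelled libraries, or 5.89 and 7.06, 12.4 and 8.997, and 13.5 and 10.9 CPM. Both shScr libraries lay below all 4 others, while the hairpin groups overlapped each other. The fitted rise over shScr was 1.64-fold for shPkm1 (log2 fold change 0.72, SE 0.19, 95% interval 0.30 to 1.13) and 1.88-fold for shPkm2 (0.91, SE 0.19, 0.50 to 1.32). The difference between the hairpin groups was 0.19 (SE 0.18), with an interval from -0.19 to 0.58. Without the first shPkm1 library the shPkm1 value fell to 0.48 and was no longer past the threshold described below.

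Pfkfb3 (gene 170768, chr2:11471430-11554071) was the most abundant of the 4 isozyme genes in shScr. Its counts were 313 and 375 in shScr, 328 and 338 in shPkm1, and 353 and 318 in the shPkm2-labelled libraries. After TMM scaling the levels were 19.83 and 21.18, 17.5 and 17.1, and 16.6 and 15.2 CPM, so that the groups did not overlap and ran downward from shScr to shPkm2. In TPM they were 5.79 and 6.88, 7.01 and 6.68, and 7.25 and 6.31, and all groups overlapped. The fitted difference from shScr was -0.25 (SE 0.12, 95% interval -0.50 to 0.01) for shPkm1 and -0.37 (SE 0.12, -0.62 to -0.12) for shPkm2. With library totals the latter was -0.05, and the mean TPM was slightly above that of shScr in both hairpin groups, so neither the size nor the direction of the difference holds across scales.

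Pfkfb4 (gene 270198, chr9:108988272-109032236) was level on the TMM scale. It held 196 and 189 counts in shScr, 232 and 230 in shPkm1 and 247 and 247 in shPkm2, which came to 12.4 and 10.7, 12.3 and 11.6, and 11.6 and 11.8 CPM. The groups overlapped, and the fitted differences from shScr were 0.06 (SE 0.14, 95% interval -0.24 to 0.35) and 0.02 (SE 0.14, -0.28 to 0.32). In TPM, however, both hairpin groups lay above shScr, at 7.08 and 6.26 and at 6.93 and 6.70 against 4.91 and 4.78. With library totals the value for shPkm2 was 0.35.

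Tigar (gene 319801, chr6:127085116-127109552) was the gene with the largest fall, and the fall was in shPkm1. It held 157 and 140 counts in shScr, 79 and 99 in shPkm1 and 155 and 165 in the shPkm2-labelled libraries, or 9.95 and 7.91, 4.21 and 5.00, and 7.29 and 7.87 CPM. Both shPkm1 libraries lay below all 4 others on both scales. The fitted level in shPkm1 was 1.93-fold lower than in shScr (log2 fold change -0.95, SE 0.18, 95% interval -1.35 to -0.55). The libraries labelled shPkm2 were 1.64-fold above shPkm1 (0.72, SE 0.18, 0.32 to 1.11). Between shPkm2 and shScr the CPM ranges were only just apart (highest shPkm2 library 7.87, lowest shScr library 7.91), the fitted difference was -0.23 (SE 0.17, -0.61 to 0.14), and in TPM shPkm2 lay above shScr (3.91 and 4 against 3.57 and 3.20). The direction of that comparison therefore depends on the scale.

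The window of 250 bases before the Tigar start is shown as that of the gene with the largest fall. It lies at chr6:127109553-127109802 on the minus strand (RefSeq, GRCm38.p6), with 65.6% G and C, and capitals again mark CANNTG.
Tigar: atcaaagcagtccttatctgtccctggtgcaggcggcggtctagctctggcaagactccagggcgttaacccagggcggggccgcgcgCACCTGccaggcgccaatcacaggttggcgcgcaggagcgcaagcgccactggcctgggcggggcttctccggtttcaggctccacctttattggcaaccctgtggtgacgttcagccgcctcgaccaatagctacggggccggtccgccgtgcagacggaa
It held 1 match to CANNTG, at position -162 from the start, and 0 to ACGTG.

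The bases CACGTG join both motifs, since they hold ACGTG and are an E-box. They were found in 3 of the 12 promoter windows annotated to the 6 genes, 1 each of Pfkfb2, Pfkfb3 and Fbp2, and in 6.02% of all 32851 windows, and this motif was singled out after the search. The stretch from 70 to 11 bases before each of these starts is shown with the match in capitals. They lie at chr1:130715832-130715891, chr2:11502101-11502160 and chr13:62858411-62858470, all on the minus strand of GRCm38.p6 and from RefSeq, and the matches begin at positions -22, -53 and -42 from the start.
Pfkfb2: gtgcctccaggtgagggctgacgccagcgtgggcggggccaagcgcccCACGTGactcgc
Pfkfb3: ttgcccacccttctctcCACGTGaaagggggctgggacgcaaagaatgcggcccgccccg
Fbp2: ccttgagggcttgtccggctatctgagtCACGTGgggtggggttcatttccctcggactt
The Pfkfb2 window is that of the non-coding NR_027859.1, which is not among the 3 Pfkfb2 transcripts measured, and the window of the measured NM_001162416.1 holds ACGTG but not CACGTG. The Pfkfb3 window is that of NM_133232.3 and further transcripts. No window was matched to the start of XM_017315954.1, the only Pfkfb3 transcript with over 3 counts in every library. A match says nothing of what binds there.

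Fbp2 (gene 14120, chr13:62836884-62858400) was at or under the floor in every library. It held 2 and 0 counts in shScr, 1 and 0 in shPkm1, and 0 and 0 in the shPkm2-labelled libraries. A count of 0 allows up to 3 counts, which is 0.141 to 0.19 CPM per library on the TMM scale, for counting error only. No fold is given, since no group stood above that limit. The liver isozyme gene, Fbp1, was looked for but had no values here.

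**Figure D2:**
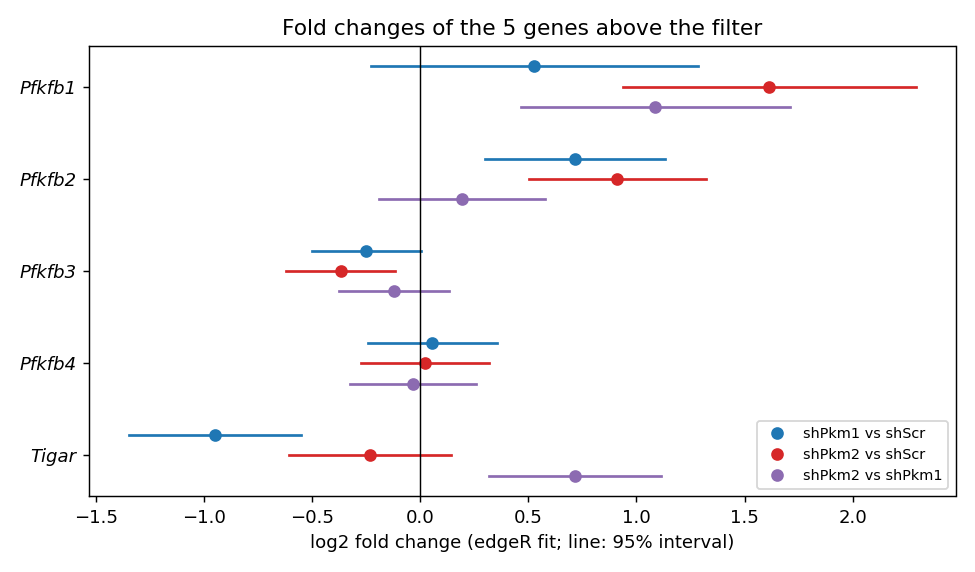
Fitted log2 fold changes (x axis) of the 5 genes that passed the filter, for the 3 comparisons. Points are estimates and lines 95% intervals from the fit across all genes. The intervals of Pfkfb1 in shPkm2 against shScr (0.94 to 2.29) and of Tigar in shPkm1 against shScr (-1.35 to -0.55) do not hold 0, while all 3 of Pfkfb4 do.

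Counted by the threshold used for all genes (adjusted p under 0.05, edgeR quasi-likelihood test with Benjamini-Hochberg adjustment over 12643 genes), 2 of the 5 tested members were called for shPkm1 against shScr, Pfkfb2 as higher and Tigar as lower. Of all tested genes 63.1% were called there, 31.8% as higher and 31.4% as lower. For shPkm2 against shScr 3 of 5 were called, Pfkfb1 and Pfkfb2 as higher and Pfkfb3 as lower, beside 68% of all genes (33.9% higher and 34.2% lower). For shPkm2 against shPkm1 2 of 5 were called, Pfkfb1 and Tigar, both higher, beside 53% of all genes (25.7% higher and 27.3% lower). The members were chosen on these values, so nothing is read from the counts. Both comparisons with shScr share the 2 control libraries. Of these calls Pfkfb2 (shPkm1 against shScr) and Tigar (shPkm2 against shPkm1) were lost without the first shPkm1 library, Pfkfb1 (shPkm2 against shPkm1) without the second shPkm1 library, and Pfkfb3 without the second shPkm2 library. With library totals Pfkfb3 was not called and Pfkfb4 was called as higher, which made it 3 higher and 0 lower for shPkm2 against shScr, and with DESeq2 Pfkfb1 was not called for shPkm2 against shPkm1.

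As shares of the summed Pfkfb TPM, the make-up of the family shifted from Pfkfb3 to Pfkfb1 and Pfkfb2. The TPM of Pfkfb3 itself did not fall, with means of 6.335, 6.845 and 6.78 in shScr, shPkm1 and shPkm2. The summed Pfkfb TPM was higher in both hairpin groups, with means of 13.42, 18.06 and 20.2. Pfkfb3 held 47.1% ± 2.2 (SD, n = 2) with shScr, 38.1% ± 3.0 with shPkm1 and 33.6% ± 0.41 in the shPkm2-labelled libraries. Pfkfb1 held 4.76% ± 0.83, 7.03% ± 0.072 and 13.7% ± 0.96. Neither gene overlapped between groups in its share. Pfkfb2 held 11.9% ± 2.0, 17.9% ± 3.9 and 18.9% ± 2.6, and overlapped between the hairpin groups. Pfkfb4 held 36.2% ± 3.4, 37.0% ± 0.94 and 33.8% ± 2.1, where shScr overlapped both other groups and shPkm1 lay above shPkm2. Shares within a library do not depend on how libraries are scaled to each other.

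The genes of the target enzyme shifted too. Among the phosphofructokinase-1 genes, the muscle subunit gene Pfkm went from 64.9% ± 6.5 (SD, n = 2) of their summed TPM with shScr to 36.6% ± 0.36 with shPkm1 and 21.97% ± 0.22 in the shPkm2-labelled libraries. The liver subunit gene Pfkl went from 28.3% ± 5.7 to 43.1% ± 1.0 and 60.3% ± 0.0092, and the platelet subunit gene Pfkp from 6.79% ± 0.79 to 20.3% ± 0.65 and 17.7% ± 0.23. For each 100 TPM of these 3 genes the Pfkfb genes together held 3.17 and 3.72 TPM in shScr, 6.93 and 5.67 in shPkm1, and 8.07 and 7.88 in the shPkm2-labelled libraries. For each TPM of Tigar they held 3.56 and 4.42, 9.03 and 6.84, and 5.48 and 4.74 TPM, so the ratio was highest in shPkm1. The ratio of Pfkfb3 to Pfkfb4 was 1.18 and 1.44 in shScr and between 0.942 and 1.07 in the other 4 libraries.

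**Figure D3:**
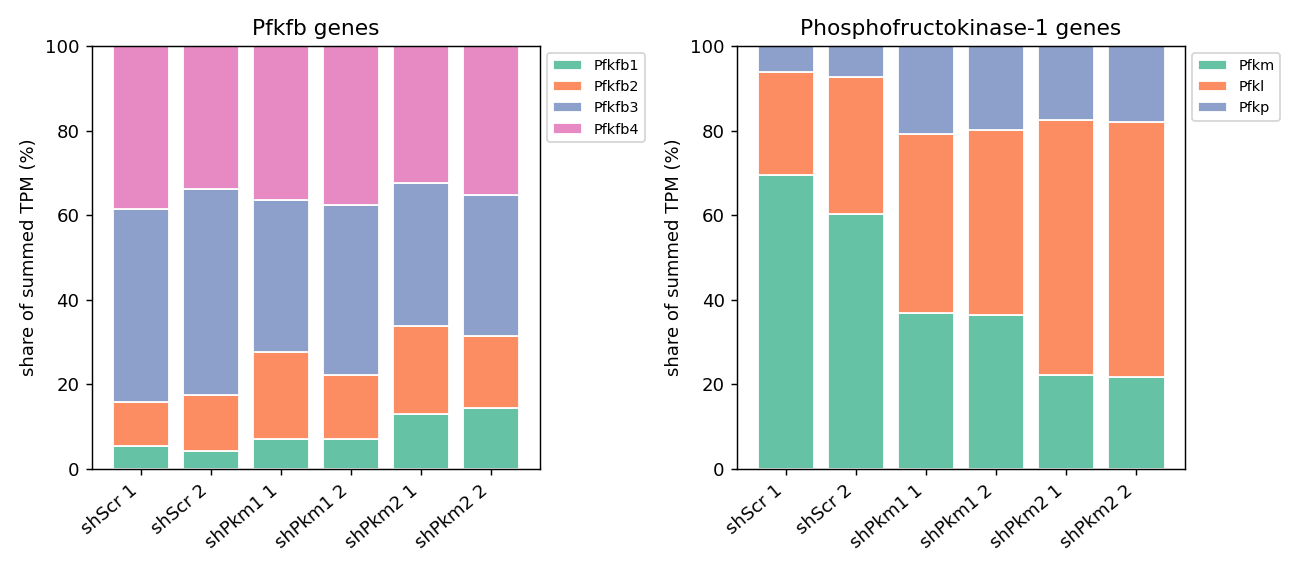
Share of summed TPM (y axis, percent) held by each Pfkfb gene (left) and each phosphofructokinase-1 gene (right) in each of the 6 libraries (x axis). The share of Pfkfb3 falls from 48.69% at most in shScr to 33.26% at least in the shPkm2-labelled libraries. That of Pfkm falls from 69.48% to 21.82%.

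Transcript usage, the split of a gene's counts over its transcripts, was not used to choose the genes. The table used here has 3 transcripts of Pfkfb1, 3 of Pfkfb2, 9 of Pfkfb3, 6 of Pfkfb4 and 1 each of Tigar and Fbp2. By the usage test of edgeR (diffSpliceDGE, Simes p per gene, adjusted over 7704 genes) 0 of the 4 Pfkfb genes were called in each comparison, with adjusted p = 1 throughout, and 0 had an unadjusted p under 0.05 (lowest p 0.732, Pfkfb3 in shPkm2 against shScr). Of all genes with at least 2 tested transcripts 1.05%, 2.44% and 1.25% were called for shPkm1 against shScr, shPkm2 against shScr and shPkm2 against shPkm1. Over all alternatives the adjusted p of these genes stayed at 1, except for Pfkfb4 in shPkm2 against shScr, where leaving out 1 library gave 0.291 to 1. By the same test Pkm, a far more abundant gene, was not called in any comparison. Yet its Pkm1 transcript held 33.27% and 27.61% of its counts in shScr, and 15.6% and 13.54% in shPkm1. In the shPkm2-labelled libraries it held 8.538% and 8.689%. The test thus missed a shift of this size, and cannot decide whether usage of the lower Pfkfb genes changed. A p that misses the threshold does not show that usage was the same.

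The estimates per transcript were uneven between libraries of a group. Pfkfb2 was the steadiest: NM_008825.4 held 69.1 and 93.0 counts in shScr, 181 and 148 in shPkm1 and 236.5 and 192.1 in the shPkm2-labelled libraries, between 74.3% and 83.9% of the gene. Of the 9 Pfkfb3 transcripts 1, the predicted XM_017315954.1, had over 3 counts in every library, with 126.6 to 219.2 counts. NM_133232.3 of the same gene was at 0 counts in the first shScr library and at 102.3 in the second. Pfkfb4 was led by NM_173019.5 with 122.2 to 203.8 counts, and its XM_006512138.2 held 88.31 counts in the second shPkm2 library and at most 6.79 in the others. Pfkfb1 NM_008824.3 held 14.00 and 2.22 counts in shScr, 21.9 and 8.77 in shPkm1, and 43.1 and 45.3 in the shPkm2-labelled libraries. No transcript switch is read from such estimates.

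**Figure D4:**
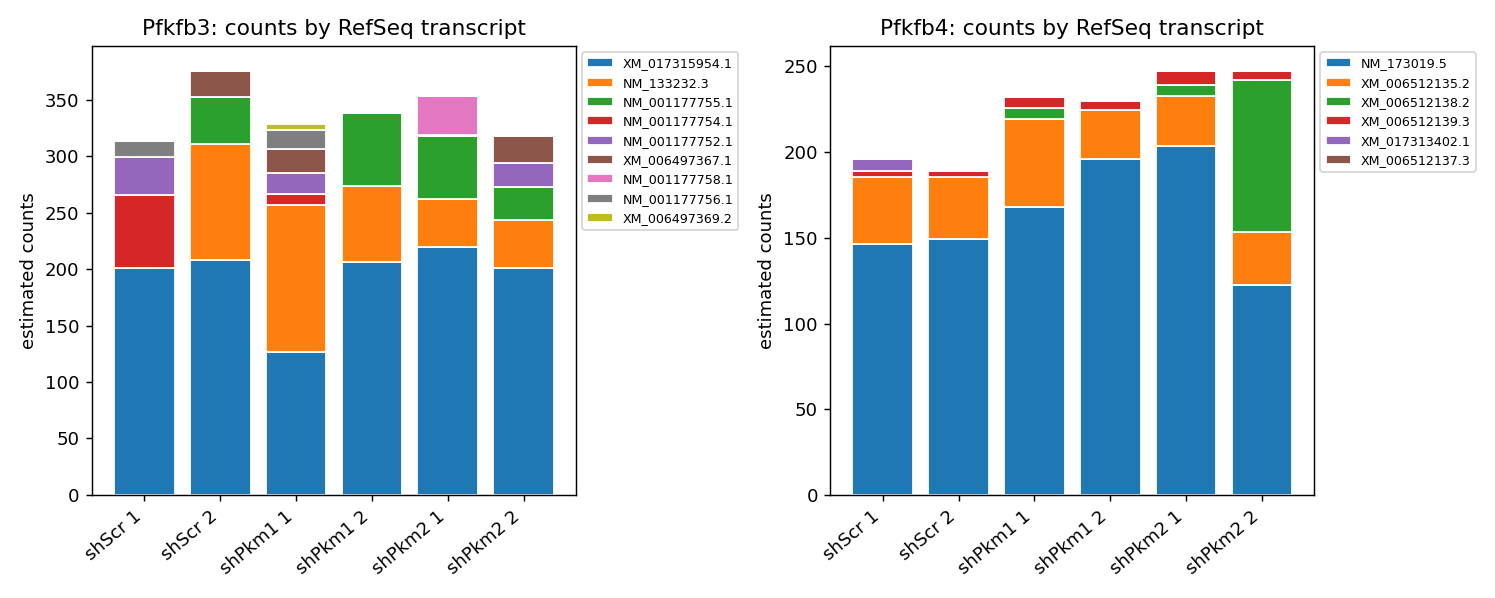
Estimated counts (y axis) of each measured RefSeq transcript of Pfkfb3 (left) and Pfkfb4 (right), stacked by library (x axis). The second shPkm2 library gives 88.31 Pfkfb4 counts to XM_006512138.2, and NM_133232.3 of Pfkfb3 is listed at 0 in the first shScr library and holds 102.3 counts in the second.

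Genes with the most similar profile were looked up over the 6 libraries, as the root mean square difference of log2 CPM after centring each gene on its own mean. For Pfkfb1 they were Npm1 (0.071), Slc30a4 (0.076) and Rad21 (0.079), and 175 of 10953 compared genes lay within 0.2. For Pfkfb2 they were Irs1 (0.078), Zfp871 (0.085) and Zfp113 (0.088), with 467 of 10952 within 0.2. For Tigar the list was led by Sf3a2 (0.052) and Acaa2 (0.072), with 221 within 0.2. The profiles of Pfkfb3 and Pfkfb4 varied little, so that 2260 and 2343 genes lay within 0.2, led by Gtf3c4 (0.028), Eral1 (0.031) and Map4 (0.038) and by Klhl7 (0.037), Rcn2 (0.038) and Kdm1b (0.040).

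Among the other enzymes of glycolysis and gluconeogenesis more fell than rose against shScr on the TMM scale. Of 31 such genes 23 were tested: 4 rose, 13 fell and 6 were not called in shPkm1 against shScr (median log2 fold change -0.49, beside 0 over all genes). In shPkm2 against shScr 3 rose, 12 fell and 8 were not called (median -0.32, beside 0.01), but with library totals it was 7 higher and 7 lower, and without the first shPkm2 library 1 was higher. In shPkm2 against shPkm1 5 rose, 7 fell and 11 were not called (median -0.01, beside 0.01). Pkm, the gene at which the hairpins were directed, is on this list. It was counted as fallen in shPkm1 against shScr (log2 fold change -0.63) and as risen in shPkm2 against shPkm1 (0.83). In shPkm2 against shScr it was not called (0.20). Adjusted p-values in this and the next 3 paragraphs are from the edgeR quasi-likelihood test over all genes, and the shares of all genes called are those given above.

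At the fructose bisphosphate step itself, Pfkm held 278.9 and 229.2 TPM in shScr, 103.7 and 106.5 in shPkm1, and 58.7 and 52.5 in the shPkm2-labelled libraries. On the log2 scale it fell by 1.67 in shPkm1 (SE 0.14, adjusted p = 3.35e-07), and it fell by 2.65 in shPkm2 (SE 0.14, adjusted p = 2.74e-09). Pfkp held 24.99 and 27.93, 58.5 and 58.2, and 46.6 and 43.0 TPM, and rose by 0.77 in shPkm1 (SE 0.09, adjusted p = 1.21e-05) and by 0.34 in shPkm2 (SE 0.09, adjusted p = 0.00576), the latter lost without the first shPkm2 library. Pfkl was not called in either comparison with shScr (log2 fold change -0.23, adjusted p = 0.0828, and 0.02, adjusted p = 0.90), though with library totals it was 0.34 higher in shPkm2. Aldoa, the muscle aldolase that splits fructose-1,6-bisphosphate, fell by 0.85 (adjusted p = 0.000262) and 1.01 (adjusted p = 4.56e-05). Further along, the muscle mutase gene Pgam2 fell by 2.31 in shPkm1 and 7.67 in shPkm2 (adjusted p = 4.95e-06 and 1.74e-09), where it was down to 15 and 21 counts from 3789 and 1976. Without the first shScr library these values were -1.66 and -7.02. The muscle enolase gene Eno3 fell by 0.92 and 1.68 (adjusted p = 0.000131 and 4.59e-07), and Pcx, pyruvate carboxylase, by 1.77 and 1.65 (adjusted p = 3.05e-08 and 2.28e-08). Pck2, the mitochondrial enzyme that makes phosphoenolpyruvate, rose by 1.95 in shPkm1 (adjusted p = 1.18e-08) and 0.34 in shPkm2 (adjusted p = 0.0125, lost without the first shPkm2 library). Pgam1 was 0.63 higher in shPkm2 (adjusted p = 0.000191) and 0.29 higher in shPkm1 (adjusted p = 0.0328, lost when either shPkm1 or either shPkm2 library was left out and in a fit of only these groups), and is uncertain since near-identical copies can share its reads.

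Genes known to regulate the 6 members were examined from a list of 16, of which 15 were tested. In shPkm1 against shScr 2 rose, 7 fell and 6 were not called (median log2 fold change -0.64). In shPkm2 against shScr 5 rose, 8 fell and 2 were not called (median -0.94), though 3 rose without the first shPkm2 library, and in shPkm2 against shPkm1 3 rose, 7 fell and 5 were not called (median 0.00). Hif1a, the oxygen-regulated factor that induces Pfkfb3 and Pfkfb4, held 1417 and 1340 counts in shScr, 3855 and 3667 in shPkm1, and 4510 and 4429 in shPkm2. On the log2 scale it rose by 1.24 in shPkm1 (SE 0.11, adjusted p = 7.06e-07) and by 1.36 in shPkm2 (SE 0.11, adjusted p = 1.69e-07). Sp1, a general promoter factor, rose by 0.48 (adjusted p = 0.00229) and 0.69 (adjusted p = 0.000104). Prkaa1, a catalytic subunit of the energy sensor AMPK that can phosphorylate Pfkfb2 and Pfkfb3, rose by 0.80 in shPkm2 (adjusted p = 1.05e-05), and its shPkm1 value was 0.22 (adjusted p = 0.068). That value was called with library totals (0.42), with limma (0.39 and 0.41) and without the first shScr library (0.31). The other catalytic subunit gene, Prkaa2, fell by 2.56 in shPkm2 (adjusted p = 6.67e-07) and by 0.65 in shPkm1 (adjusted p = 0.0144). Its shPkm1 call was lost with library totals (-0.44) and with limma (-0.235 and -0.387). It was also lost without the first shScr library (-0.27) or either shPkm1 library. Akt2, which acts in insulin signalling upstream of Pfkfb2, fell by 1.52 and 2.21 (adjusted p = 1.13e-07 and 1.7e-09), and Akt1 by 0.99 and 0.95 (adjusted p = 3.1e-06 and 2.97e-06). The muscle factor gene Myog fell by 0.94 and 5.35 (adjusted p = 3.19e-05 and 1.06e-11). Mef2c fell by 2.25 and 6.02 (adjusted p = 0.00112 and 6.67e-06), but its shScr counts were 367 and 97, and without the first shScr library the values were -0.88 and -4.64. Without the second shScr library they were -2.96 and -6.72. Trp53, the gene of p53, stood at 234.9 and 246.3 CPM in shScr, 220.8 and 218.2 CPM in shPkm1, and 273.8 and 293.5 CPM in the shPkm2-labelled libraries. In TPM it stood at 176.1 and 208.9, 236.9 and 221.9, and 306.7 and 311.1, so shPkm1 lay below shScr in CPM and above it in TPM. The fit put Trp53 0.24 higher in shPkm2 than in shScr (adjusted p = 0.0433) and 0.37 higher than in shPkm1 (adjusted p = 0.00576). In shPkm1 against shScr it was not called (-0.13, adjusted p = 0.248).

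Of 16 hypoxia target genes, all tested, 10 rose, 4 fell and 2 were not called in shPkm1 against shScr (median log2 fold change 0.39), and 2 rose, 7 fell and 7 were not called in shPkm2 against shScr (median -0.19). In shPkm2 against shPkm1 1 rose, 10 fell and 5 were not called (median -0.69). These counts depend on the scale: with library totals 1 was lower in shPkm1, and 6 were higher and 3 lower in shPkm2. Without the first shScr library 5 were higher in shPkm2. Car9, a carbonic anhydrase, went in opposite directions under the hairpins: 70 and 23 counts in shScr became 845 and 917 in shPkm1 (log2 fold change 4.02, adjusted p = 7.6e-08) and 5 and 4 in shPkm2 (-3.68, adjusted p = 0.000124). Without the first shScr library these were 5.13 and -2.57, and without the second 3.36 and -4.34. In shPkm1 Ero1a, an oxidase of protein folding, rose by 1.83 (adjusted p = 3.14e-07) and Ndrg1, a stress-response gene, by 1.60 (adjusted p = 2.31e-08). Bnip3l, a mitophagy receptor, rose by 0.85 and 0.76 (adjusted p = 7.2e-05 and 0.000147). The glucose transporter gene Slc2a1 rose by 0.39 in shPkm2 (adjusted p = 0.00232), whereas its shPkm1 value was -0.27 (adjusted p = 0.0236; -0.08 and not called with library totals, and not called without either library of shPkm1 or shPkm2). The prolyl hydroxylase gene Egln3 fell by 0.65 and 1.39 (adjusted p = 9.93e-05 and 6.57e-08), and the collagen prolyl hydroxylase gene P4ha2 rose by 0.41 in shPkm1 (adjusted p = 0.0022) but fell by 0.91 in shPkm2 (adjusted p = 2.68e-06). Egln1 and Kdm3a were 0.42 and 0.40 lower in shPkm1 (adjusted p = 0.00165 and 0.00313), and neither was called there with library totals.

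Of 16 p53 target genes other than Tigar, all tested, 1 rose, 6 fell and 9 were not called in shPkm1 against shScr (median log2 fold change -0.18). In shPkm2 against shScr 3 rose, 7 fell and 6 were not called (median -0.15), and in shPkm2 against shPkm1 6 rose, 6 fell and 4 were not called (median -0.13). Without the first shPkm1 library 3 rose in that last comparison, and in the first 2 rose without that library and 4 without the second shScr library. With library totals 2 and 6 were higher in the comparisons with shScr. Cdkn1a, the cell cycle inhibitor p21, fell by 0.89 in shPkm1 (adjusted p = 4.82e-05) and 3.81 in shPkm2 (adjusted p = 8.4e-11). Its counts were 64370 and 65121 in shScr, 40368 and 40490 in shPkm1, and 5594 and 6082 in the shPkm2-labelled libraries. Bbc3, which promotes cell death, fell by 1.28 and 1.30 (adjusted p = 3.15e-06 and 1.64e-06). The antiproliferative gene Btg2 fell by 0.63 and 1.61 (adjusted p = 0.000122 and 2.01e-08), and the receptor gene Eda2r fell by 0.52 in shPkm1 (adjusted p = 0.00105) and fell by 1.498 in shPkm2 (adjusted p = 9.29e-08). Rrm2b, a subunit of ribonucleotide reductase, rose by 0.76 and 0.57 (adjusted p = 0.0014 and 0.00786), the latter lost without the second shPkm2 library. Gtse1, a cell cycle gene, rose by 1.64 in shPkm2 (adjusted p = 8.28e-08), and Sesn1, a stress-response gene, by 0.44 (adjusted p = 0.00264).

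**Figure D5:**
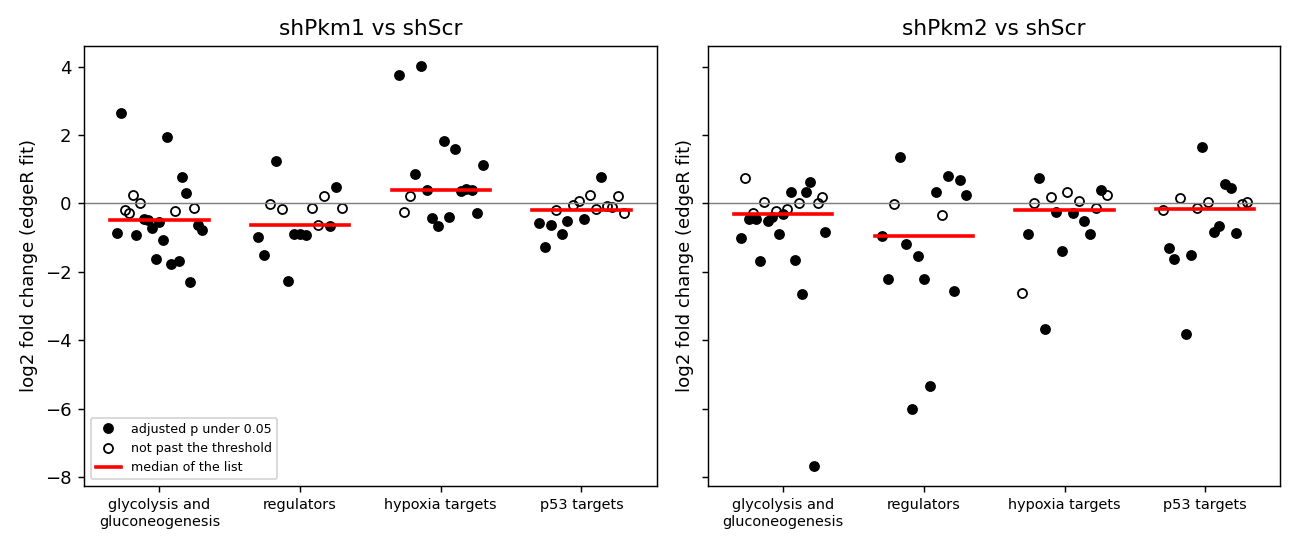
Fitted log2 fold changes (y axis) of the tested genes of the 4 lists (x axis), for shPkm1 against shScr (left) and shPkm2 against shScr (right). Filled points passed an adjusted p of 0.05, open points did not, and red bars are list medians. The hypoxia list has its median at 0.39 on the left and -0.19 on the right, and the lowest point on the right is Pgam2 (-7.67).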

How the data were processed

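Per the labels' protocols, total RNA came from TRIzol extraction and a sequencing provider prepared the libraries. Per the file headers, the authors deposited FPKM, TPM and an estimated count for each of 57920 RefSeq transcripts and each library. The submitters' processing notes name HISAT, StringTie, Bowtie, RSEM, DESeq2 and the build mm10, without roles or versions. Read length, strandedness and filters are not given in the sources used here. Of the deposited estimated counts 48.2% to 51% per library were whole. FPKM as deposited is scaled for length and depth, and the deposited TPM values sum to 999999 to 1000000 per library. A further 9 columns of the authors' group means were not used.

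Transcript values were added up per NCBI gene number (17558 genes, of which 17445 matched a symbol), and gene counts were rounded. Genes were tested with edgeR 4.0.16 in R 4.3.3: filterByExpr (minimum count 10, total 15), TMM scaling, 1 coefficient per group over all 6 libraries, the quasi-likelihood F-test, and Benjamini-Hochberg adjustment over 12643 genes with a threshold of 0.05, two-sided. Transcript usage was tested with diffSpliceDGE on 28695 transcripts of 7704 genes. Since 0.333 is the smallest p that permuting 2 against 2 libraries allows, tests came from fits across all genes. SEs are the absolute log2 fold change over the root of F. The count of 3 used as a floor covers counting error only. Libraries of a group differed by more than sampling noise (chi-square per degree of freedom 31.6, 6.08 and 6.82).

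The members and the gene lists were chosen with earlier results of these data known. From each list and each comparison with shScr, the genes named were up to 3 risen and 3 fallen genes of largest change among those called with a mean of at least 50 counts, with Pfkm, Pfkl, Pfkp and Aldoa always given. Trp53 was added after its values were seen. Promoters were those of the members with the largest rise and fall, and a further set was chosen after the motif search. Alternatives were DESeq2 size factors, library totals, no or a stricter filter, DESeq2 1.42.0, limma 3.58.1 on log2(FPKM + 1) and log2(FPKM + 0.1), a block on replicate number, fits restricted to the compared groups, and leaving out each library. Identities between the Pfkfb proteins were not computed here.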

Additional observations from a re-analysis of the deposited data

How the results depend on the processing

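Of 222 alternative values for the members' fold changes, 209 stayed on their side of the threshold, 8 lost the call and 5 gained it. Of the 209, 12 turned in sign, 0 of them for a difference that had been called. In shPkm1 against shScr Pfkfb1 passed with limma on log2(FPKM + 1) (0.28) and log2(FPKM + 0.1) (0.67). In shPkm2 against shScr Pfkfb3 lost its call with library totals (-0.045) and with limma (-0.025 and -0.03), while Pfkfb4 gained one (0.35 with library totals, 0.28 and 0.35 with limma). In shPkm2 against shPkm1 Pfkfb1 lost its call with DESeq2 (1.09). Leaving out 1 library gave 0.485 to 0.939 for Pfkfb2 in shPkm1 against shScr, -0.431 to -0.301 for Pfkfb3 in shPkm2 against shScr, and 1.019 to 1.147 for Pfkfb1 and 0.589 to 0.849 for Tigar in shPkm2 against shPkm1. With limma on log2(FPKM + 1), whose pseudocount shrinks the change of low genes, Pfkfb1 in shPkm2 against shScr was 0.897 and Tigar in shPkm1 against shScr -0.476, both still called. Their other alternatives gave 1.48 to 1.94 and -1.11 to -0.71. Over all alternatives the values in shPkm2 against shScr ran from -0.39 to 0.096 for Tigar, called in none of them, and from -0.084 to 0.353 for Pfkfb4. The causes were not tested. By CPM, which ignores length, Pfkfb1 held 2.06%, 2.84% and 5.90% of the family and Pfkfb3 52.1%, 42.1% and 37.6%.

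Replicate numbers did not pair the libraries: differences between replicates correlated at -0.026, 0.042 and 0.053 between groups. With the number as a block the calls of transcript usage went from 81 to 40, from 188 to 118 and from 96 to 57, and the hypoxia list had 4 higher genes in shPkm2. Pgam1 in shPkm1 against shScr lost its call (0.292, adjusted p = 0.0564) and Ero1a in shPkm2 against shScr gained one (0.342). Leaving out 1 library gave 35 to 79, 100 to 169 and 64 to 87 usage calls. Counts of called genes (7984, 8602 and 6703) stayed within 1.5 times, at 6047 to 8285, 7231 to 8797 and 4939 to 7987.

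Of 1530 alternative values for the other genes, 1445 stayed on their side of the threshold (17 uncalled ones turned in sign), 45 lost the call, 34 gained one and 6 reversed. The reversals were in shPkm2 against shScr: Egln1 went from -0.24 to 0.084 with library totals and 0.082 and 0.086 with limma, and Kdm3a from -0.29 to 0.041, 0.058 and 0.062. With library totals or limma the pathway list had 7 higher and 7 lower genes in shPkm2 against shScr (3 and 12 before) and 8 higher in shPkm2 against shPkm1 (5 before). The hypoxia list had 1 lower in shPkm1 (4 before), 6 or 7 higher (2 before) and 3 or 4 lower (7 before) in shPkm2, and 2 higher (1 before) between the hairpins. The p53 list had 2 higher in shPkm1 (1 before) and 6 or 5 higher in shPkm2 (3 before). In shPkm2 against shScr, leaving out the first shScr library gave 5 higher hypoxia genes, and leaving out the first shPkm2 library gave 1 higher pathway gene and 3 higher regulators (5 before). Without the first shPkm1 library 2 p53 targets rose in shPkm1.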
